A study of Mus musculus with 5 samples.

Results

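Complex III of the respiratory chain, the cytochrome bc1 complex, and cytochrome c, the protein that complex III hands its electrons to, were followed through 10 nuclear genes: the core proteins Uqcrc1 and Uqcrc2, the redox subunits Cyc1 and Uqcrfs1, the small subunits Uqcrb, Uqcrq, Uqcrh, Uqcr10 and Uqcr11, and Cycs, which encodes somatic cytochrome c. Members were taken by gene name, and all 10 were found among the 17015 genes of the expression table. The table held RNA-seq of tibialis anterior (TA), a fast-twitch muscle of the lower leg, from 8-week-old male mice: 3 WT control libraries and 2 libraries labelled skmNrip1-/-, a line bred to delete Nrip1, which encodes the coregulator RIP140, in skeletal muscle. In that line the Nrip1 fl/fl alleles are on a C57BL/6J background, with loxP sites on either side of the last exon, which holds the whole coding sequence and the 3′ UTR, and a Cre transgene is driven by the myogenin promoter, which directs recombination to the muscle lineage, and other cells of the muscle keep the gene. Control mice were littermates without Cre. Values are FPKM, read fragments scaled for transcript length and library size. How comparisons between genes and between libraries depend on transcript length and on that scaling is given below.

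Complex III sits in the inner mitochondrial membrane, takes electrons from reduced ubiquinone and passes them to cytochrome c while moving protons across the membrane (the Q cycle). The redox centres are carried by cytochrome b, encoded by mitochondrial DNA (mt-Cytb), by cytochrome c1 (Cyc1) and by the Rieske iron-sulfur protein (Uqcrfs1). The core proteins descend from mitochondrial processing peptidases and form the bulk of the complex on the matrix side, and the small subunits stabilise it. Cytochrome c carries the electrons on to cytochrome oxidase, and when released into the cytosol it starts the assembly of the apoptosome. Oxidative fibers, rich in mitochondria, hold more of these proteins than glycolytic fibers.

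Nrip1 itself went against its label. Its FPKM was 4.64, 7.69 and 6.55 in the WT control libraries and 25.3 and 22.5 in the libraries labelled skmNrip1-/-, a log2 fold change of 1.94 (adjusted p = 0.0261, limma with Benjamini-Hochberg adjustment over all genes tested). That call was lost without the variance trend, with the replicate block and without the third WT control library or either library labelled skmNrip1-/- (adjusted p from 0.0152 to 0.189 over all alternatives), while the log2 fold change stayed between 1.64 and 2.09. One value per gene does not show which exons the reads came from. Each direction below is that of the libraries labelled skmNrip1-/-. Genes of mitochondrial DNA made up 45.4 to 50.7% of summed FPKM in the WT control libraries and 58.6 to 60.9% in the libraries labelled skmNrip1-/-. Skeletal muscle markers were high in all 5 libraries. Acta1, Ckm, Tnnt3, Myh4, Myh1 and Mb summed to 62226 to 80928 FPKM in WT control and 60755 and 63275 in the libraries labelled skmNrip1-/-. Of the 6, 1 lay above every control (Mb, log2 fold change 0.73) and 2 below (Acta1, -0.40, and Ckm, -0.29). Over all genes tested the shares were 15.8% above and 14.4% below. Blood markers summed to 511 to 764 FPKM in the WT control libraries and 827 to 996 in the libraries labelled skmNrip1-/-, with 4 of 5 genes above every control (15.8% of all genes tested were), while endothelial markers overlapped (72.3 to 83.5 against 68.1 to 78.4 FPKM). Whether blood RNA had a part in the values below was not tested. In whole muscle, more fibers of an oxidative type cannot be told apart from more RNA of these genes in each fiber.

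Every one of the 10 genes was higher on average in the libraries labelled skmNrip1-/-, by log2 fold changes of 0.07 to 0.44 (median 0.23, against -0.00 for all 12148 genes tested), and none passed the study's thresholds of an adjusted p of 0.05 and a 1.2-fold change. The rule called 0.370% of all genes higher and 0.0823% lower. The core proteins, the redox subunits and cytochrome c lay above every WT control library in both libraries labelled skmNrip1-/-. The 5 small subunits overlapped between the groups. That makes 5 of 10 members above every WT control library, against 15.8% of all genes tested, and 0 of 10 below (14.4% of all genes). At an unadjusted p of 0.05, 4 of 10 were higher, against 6.57% of all genes, and 0 of 10 lower, against 5.33%.

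**Figure D1:**
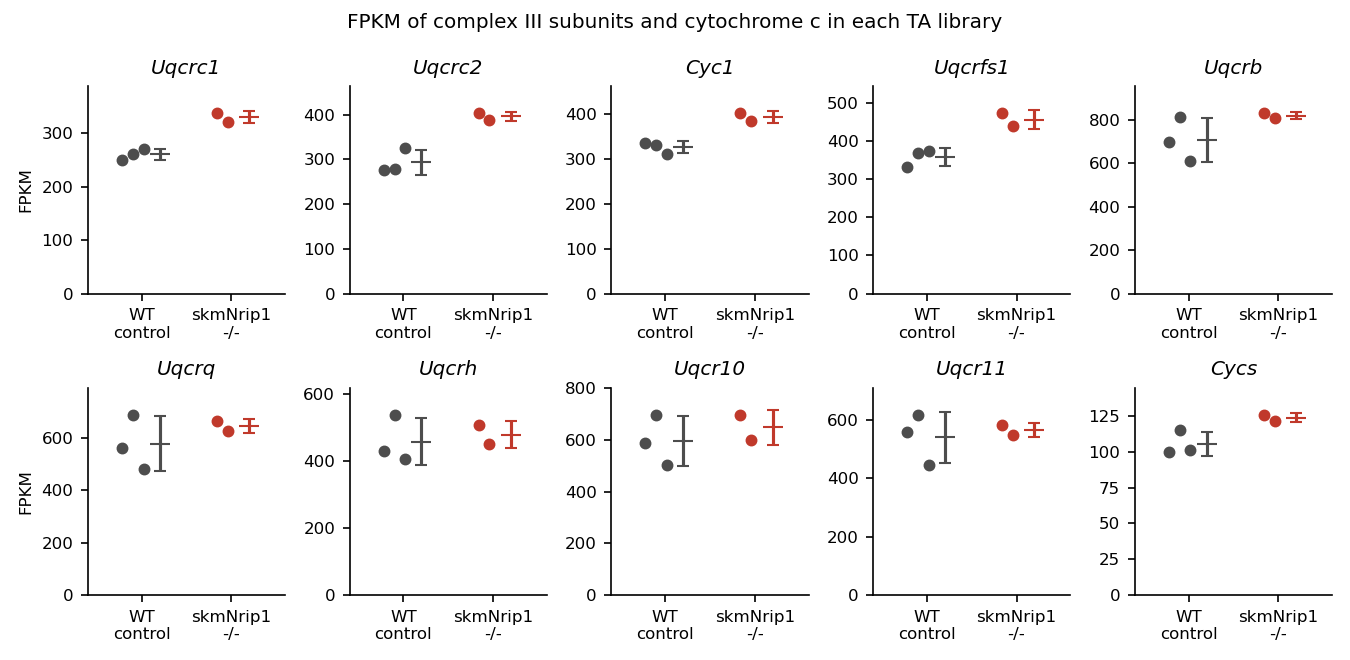
FPKM (vertical axes, each from 0) of each gene in the 3 WT control libraries (grey points) and the 2 libraries labelled skmNrip1-/- (red points), with the mean and SD of each group beside the points. Red points lie above all grey points for Uqcrc1, Uqcrc2, Cyc1, Uqcrfs1 and Cycs. For the 5 small subunits, whose WT control points spread widely, the groups overlap, although the higher red point of Uqcrb lies above all grey points.

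Uqcrc2, one of the peptidase-like core proteins, showed the largest difference of the 10. It lies on chromosome 7 (chr7:120635176-120659524, plus strand, GRCm38). It measured 278, 326 and 275 FPKM in the WT control libraries and 404 and 389 FPKM in the libraries labelled skmNrip1-/-. The lower of the latter stood well above the highest control. Group means were 293 ± 28.6 (SD, n = 3) and 396 ± 10.7 FPKM (SD, n = 2), a difference of 35.1%. Its log2 fold change was 0.44 (SE 0.12, 95% interval 0.15 to 0.73, adjusted p = 0.249).

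Its partner Uqcrc1 (chr9:108936633-108949623, plus strand), the other peptidase-like core protein, was tighter among the WT control libraries. It measured 261, 271 and 249.55 FPKM in WT control and 338 and 322 FPKM in the libraries labelled skmNrip1-/-, with no overlap. The log2 fold change was 0.34 (SE 0.10, interval 0.09 to 0.59, adjusted p = 0.284), and the difference between group means was 26.7%. The intervals of the core genes overlap.

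Among the redox subunits, Uqcrfs1 (chr13:30540308-30545362, minus strand), whose iron-sulfur cluster takes an electron from ubiquinol, measured 369, 374 and 333 FPKM in WT control and 474 and 440.4 FPKM in the libraries labelled skmNrip1-/-. Its groups did not overlap. The log2 fold change was 0.35 (SE 0.11, interval 0.08 to 0.62, adjusted p = 0.305). Cyc1 (chr15:76343523-76346260, plus strand), the heme protein that receives the electron from the Rieske subunit and reduces cytochrome c, measured 331, 310.2 and 334 FPKM in WT control and 401 and 384 FPKM in the libraries labelled skmNrip1-/-. These too were separate, with the smallest gap between groups of the large subunits. Its log2 fold change was 0.27 (SE 0.10, interval 0.02 to 0.52, adjusted p = 0.382).

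Summed over these 4 large subunits, the level was 1240.3, 1282 and 1192 FPKM in the WT control libraries and 1618 and 1535 FPKM in the libraries labelled skmNrip1-/-. The controls lay close to one another, the groups did not overlap, and the group means differed by 27.3%.

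Cycs (chr6:50562563-50566538, minus strand), the mobile carrier, was the least abundant of the 10. It measured 115, 101 and 99.9 FPKM in WT control and 126 and 122 FPKM in the libraries labelled skmNrip1-/-. Its groups did not overlap, although the first WT control library came close to the lower of the other group. The log2 fold change was 0.23 (SE 0.11, interval -0.03 to 0.50, adjusted p = 0.472). Set against its electron donor, the ratio of Cycs to Cyc1 was 0.347, 0.327 and 0.299 in WT control against 0.314 and 0.317, inside the control range, for the libraries labelled skmNrip1-/-. Of the 31-base words in the Cycs transcript, 31.8% also occur in other annotated genes, among them cytochrome c pseudogenes such as Gm10053, and the split of those reads is uncertain.

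The small subunits were more abundant per length than the large ones and less even among the controls. Uqcrb (chr13:66900617-66905378, minus strand), a subunit that lies close to cytochrome b and the ubiquinone site, was the highest of all members. It measured 814, 613 and 698 FPKM in WT control and 833 and 809.7 FPKM in the libraries labelled skmNrip1-/-. Only the first control library reached into the range of the other group. The log2 fold change was 0.22 (SE 0.15, interval -0.13 to 0.58, adjusted p = 0.632). This transcript shares 54.3% of its 31-base words with other genes, pseudogenes among them, the largest share of the 10. Genes that overlap members on the genome were low: Pdzd9, on the other strand of Uqcrc2, at 0.178 to 0.390 FPKM, Gm10767 beside Uqcrb at 0.615 to 1.001, and the pseudogene Gm12854 beside Uqcrh at 0.492 to 3.92.

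Uqcrq (chr11:53427922-53430831, minus strand), another small subunit near cytochrome b, measured 688, 482 and 561 FPKM in WT control and 662 and 625 FPKM in the libraries labelled skmNrip1-/-. Uqcr10 (chr11:4701973-4704342, minus strand), a small membrane-spanning subunit, measured 699, 505 and 588 FPKM and 696 and 602 FPKM in the same order. For both genes the first WT control library was the highest of all 5 and the second the lowest. The log2 fold changes were 0.17 (SE 0.17) for Uqcrq and 0.13 (SE 0.17) for Uqcr10, with adjusted p of 0.759 and 0.827.

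Uqcr11 (chr10:80402997-80406830, minus strand), the smallest subunit, measured 619, 445 and 558 FPKM in WT control and 583 and 549.6 FPKM in the libraries labelled skmNrip1-/-. Uqcrh (chr4:116066965-116075071, minus strand), the acidic hinge protein at the docking site of cytochrome c, measured 538, 405 and 429 FPKM and 506 and 451 FPKM in the same order. In each case the libraries labelled skmNrip1-/- lay inside the control range. Their log2 fold changes of 0.08 (SE 0.16) for Uqcr11 and 0.07 (SE 0.15) for Uqcrh were the smallest of the 10, with adjusted p of 0.898 and 0.899. The intervals, -0.31 to 0.47 and -0.30 to 0.44, include no change and also the log2 fold changes of Uqcrc1, Uqcrc2, Cyc1 and Uqcrfs1. A difference between small and large subunits was therefore not shown.

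**Figure D2:**
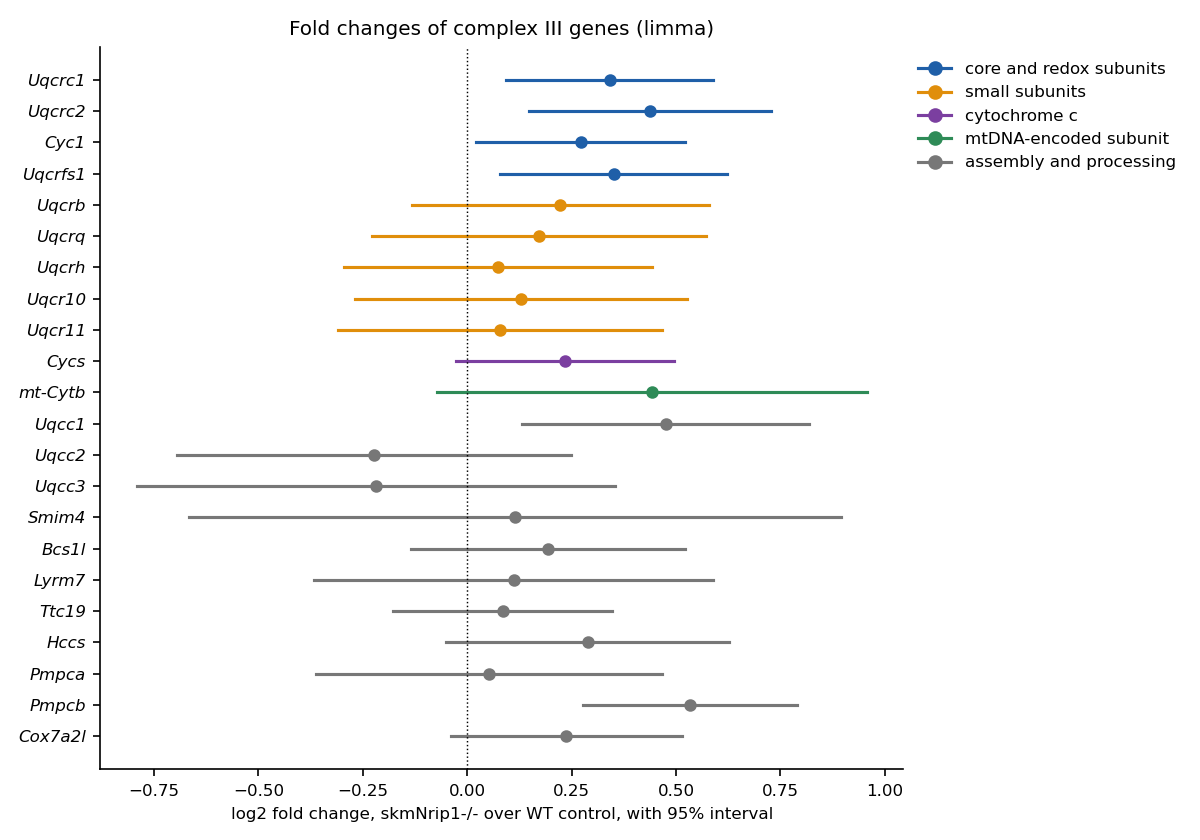
Log2 fold change of the libraries labelled skmNrip1-/- over WT control (points) with the 95% interval from limma (lines), for the core and redox subunits (blue), small subunits (orange), Cycs (purple), mt-Cytb (green) and assembly or processing genes (grey). The intervals of the 4 large subunits lie above 0, and those of the 5 small subunits and of Cycs include 0.

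The small subunits varied together from library to library. In all 5, the first WT control library was high and the second was the lowest of the series, and the highest control exceeded the lowest by 1.33 to 1.43 times, against 1.08 to 1.19 times for the core, redox and cytochrome c genes. Their summed FPKM was 3358, 2449.8 and 2835 in WT control and 3279 and 3037 in the libraries labelled skmNrip1-/-, 9.63% higher on average and overlapping. The ratio of the small to the large sum ran from 1.91 to 2.71 among the WT controls alone, and the libraries labelled skmNrip1-/- lay inside that range at 2.03 and 1.98.

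The small subunits also have the shortest transcripts, 405 to 547 nucleotides, against 1363 to 1896 for the core and redox genes and 3123 for Cycs. The median of the 511 tested genes with transcripts under 600 nucleotides was also highest in the first and lowest in the second WT control library: 0.21, -0.19 and -0.01 in WT control and 0.05 and -0.03 in the libraries labelled skmNrip1-/-, each as log2 difference from the gene's own mean. The 7761 genes of 2000 nucleotides or more varied far less, from -0.05 to 0.03. When the trend with transcript length was removed from each library, an alternative chosen after the data were seen, the 5 small subunits no longer overlapped, and 10 of 10 members lay above every WT control library, against 17.1% of all genes. With the length trend removed, Uqcrb had log2 values of 9.46, 9.43 and 9.44 in WT control and 9.65 and 9.72 in the libraries labelled skmNrip1-/-. Uqcr11, with the narrowest gap, had 9.05, 8.98 and 9.12 against 9.13 and 9.16, so its separation was slight. Log2 fold changes of the small subunits were 0.09 to 0.25, against 0.07 to 0.22 before, and no member passed the adjusted threshold (lowest adjusted p = 0.160). A trend with GC content was removed in the same way, also chosen after the data were seen. That setting left 6 of 10 members above every WT control library (15.1% of all genes). Cycs, Uqcrb, Uqcrh and Uqcr10 overlapped, and the log2 fold change of Cycs was 0.13.

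**Figure D3:**
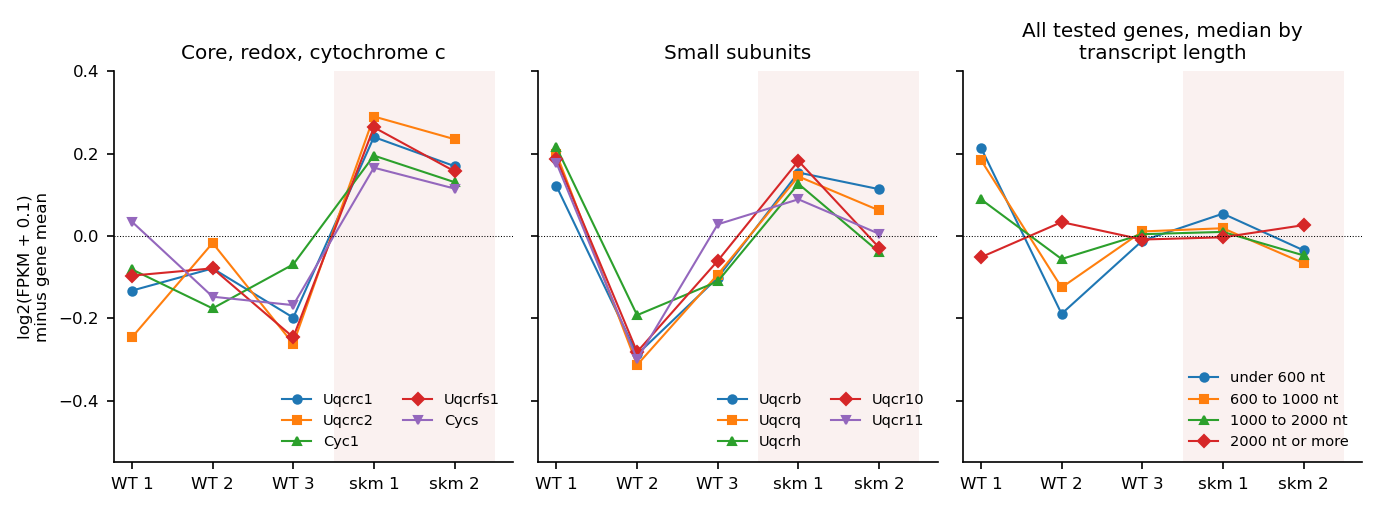
Log2(FPKM + 0.1) minus each gene's mean over the libraries (vertical axis) in the WT control (WT) and skmNrip1-/- (skm, shaded) libraries, for the core, redox and cytochrome c genes (left), the small subunits (middle) and the medians of all tested genes by transcript length (right). Lines only join the points of a gene. The small subunits and the genes under 600 nucleotides share a high first and a low second WT control library.

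Counts and fold changes were also taken with 1 library left out. Without the first WT control library, 9 of 10 members, all but Uqcr11, lay above the remaining controls (22.8% of all genes) and the median log2 fold change was 0.30. Without the second, 5 of 10 did (24.4% of all genes), the median was 0.17, and Uqcrh and Uqcr11 came out at -0.01 and -0.06.

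A gene of the same complex on the mitochondrial genome, mt-Cytb, which encodes cytochrome b, measured 32645, 26917 and 25926 FPKM in WT control and 39008 and 38019 FPKM in the libraries labelled skmNrip1-/-, with no overlap. The log2 fold change came to 0.44 (SE 0.21, adjusted p = 0.491). The ratio of mt-Cytb to the summed 9 nuclear subunits was 7.10, 7.21 and 6.44 in WT control and 7.97 and 8.32 in the libraries labelled skmNrip1-/-. That ratio did not overlap between groups. The ratio of mt-Cytb to Cyc1 alone did, at 98.6, 86.8 and 77.6 in WT control against 97.2 and 99.1.

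Because genes of mitochondrial DNA made up 45.4 to 60.9% of summed FPKM across the libraries, the denominator was varied. Deposited FPKM have equal medians of ratios in all 5 libraries. Rescaled to TPM, so that every library sums to the same total, 0 of 10 members lay above every control (2.80% of all genes did). Cycs and Uqcrh lay below every control, and the share of all genes that did so in TPM was not counted. The member median was -0.07, with only Uqcrc1, Uqcrc2 and Uqcrfs1 above 0. The median of all genes then stood at -0.29. Rescaled to the sum over nuclear genes alone, 10 of 10 members lay above every control (18.9% of all genes) and the median was 0.30, with all genes at 0.07. Relative to all genes, the members' median was higher by 0.23 as deposited, 0.22 in TPM and 0.23 over nuclear genes. As a share of nuclear FPKM the 10 members summed to 0.780%, 0.754% and 0.779% in WT control and 0.942% and 0.933% in the libraries labelled skmNrip1-/-. As a share of all FPKM they summed to 0.412%, 0.372% and 0.426% against 0.390% and 0.365%, without a gap between groups. The sign for the small subunits, Cyc1 and Cycs therefore depended on the denominator. The distance from the median gene could hardly change, because rescaling multiplies all genes of a library by the same factor. Only the pseudocount and the filter can alter it, so its steadiness is no separate result.

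**Figure D4:**
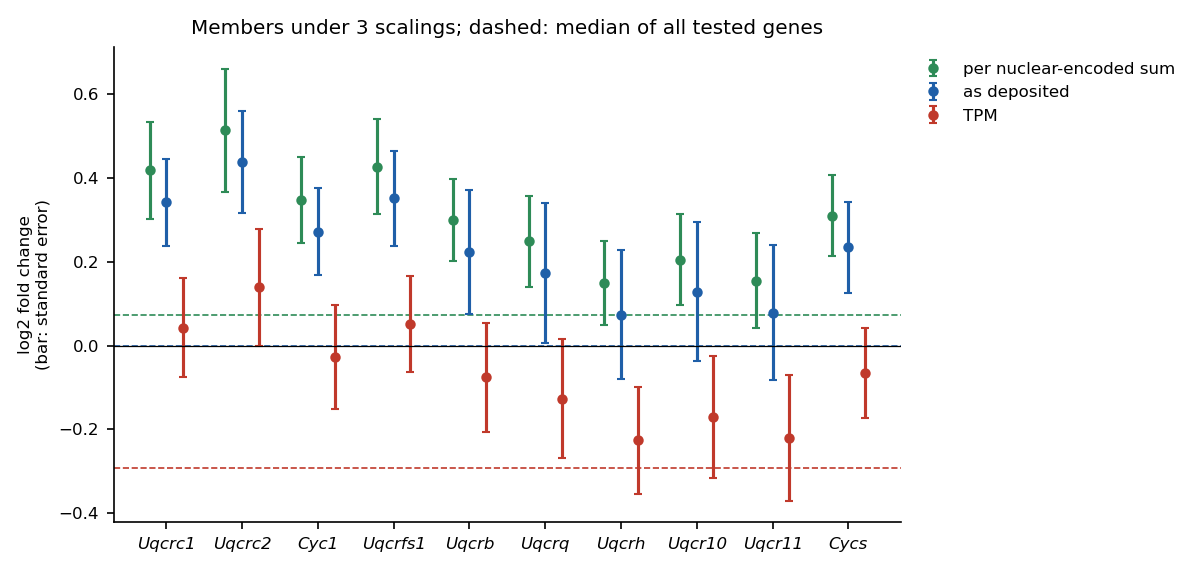
Log2 fold change with standard error (bars) of each member with FPKM as deposited (blue), rescaled over nuclear genes (green) and rescaled to TPM (red). Dashed lines give the median of all tested genes under each scaling, 0.07, -0.00 and -0.29 from top to bottom. The members lie above the line of their own scaling, and rescaling moves members and line together.

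Factors that build the complex gave mixed values, with a median log2 fold change of 0.11. Of 10 assembly genes listed, 7 were in the table and tested, and 0 were called. Uqcc1, which stabilises newly made cytochrome b, was higher at an unadjusted p of 0.0141, at 101.98, 134 and 128 FPKM in WT control and 174 and 161 FPKM in the libraries labelled skmNrip1-/- (log2 fold change 0.48, adjusted p = 0.284). Its partners in the same early step, Uqcc2 and Uqcc3, had log2 fold changes of -0.22 each and overlapped, with the first WT control library the highest for both. Without that library the values were -0.03 for Uqcc2 and -0.003 for Uqcc3, and without the second WT control library -0.36 and -0.43. Smim4, which works beside them, had a log2 fold change of 0.11 over all 5 libraries. Of the late factors that insert the Rieske protein, Bcs1l, the AAA translocase, had 0.19 and its chaperone Lyrm7 0.11, and Ttc19, which clears Rieske fragments, had 0.09. All 3 overlapped.

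Genes that process the subunits were listed separately. Pmpcb, the catalytic subunit of the peptidase that removes mitochondrial targeting presequences, measured 45.2, 46.5 and 42.5 FPKM in WT control and 68.8 and 60.9 FPKM in the libraries labelled skmNrip1-/-, without overlap (log2 fold change 0.53, SE 0.11, adjusted p = 0.132). Its non-catalytic partner Pmpca had a log2 fold change of 0.05 and overlapped. Hccs, the lyase that attaches heme to cytochromes c and c1, measured 12.9, 17.3 and 15.1 FPKM in WT control and 18.0 and 18.7 FPKM in the libraries labelled skmNrip1-/- (0.29, adjusted p = 0.495). Cox7a2l, which links complex III to cytochrome oxidase in supercomplexes, measured 110.3, 93.6 and 95.8 FPKM against 122 and 113 FPKM (0.24, adjusted p = 0.492). Of the 4 genes, 3 lay above every control (15.8% of all genes) and 0 were called (0.370% called higher). Cox7a2l was also the gene whose library profile lay nearest to the mean profile of the members, at a root mean square distance of 0.0132 log2 units over the 5 libraries among 12138 genes.

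Nuclear genes of other complexes above every control were mostly those with longer transcripts, as in complex III. Of 36 nuclear genes of complex I tested, 12 lay above every control, 12 of 25 with transcripts of 600 nucleotides or more and 0 of 11 with shorter ones. For the ATP synthase the counts were 6 of 9 and 0 of 8, and for complex III 4 of 4 and 0 of 5. For complex IV they were 3 of 7 and 2 of 6. Over all tested genes, 10.96% of those under 600 nucleotides lay above every control, as did 9.85% from 600 to 1000, 15.6% from 1000 to 2000 and 16.9% of those of 2000 or more. The 4 genes of complex II, none of them short, were all above every control, and so were all 13 protein genes of mitochondrial DNA. The mitochondrial genes did not follow the length pattern. Their median log2 fold change was 0.72 for the 4 under 600 nucleotides and 0.50 for the 9 longer ones. Median log2 fold changes were 0.09 for complex I, 0.39 for complex II, 0.22 for the 9 nuclear subunits of complex III, 0.19 for complex IV and 0.17 for the ATP synthase. Differences between complexes, and the part of transcript length in them, were not tested.

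**Figure D5:**
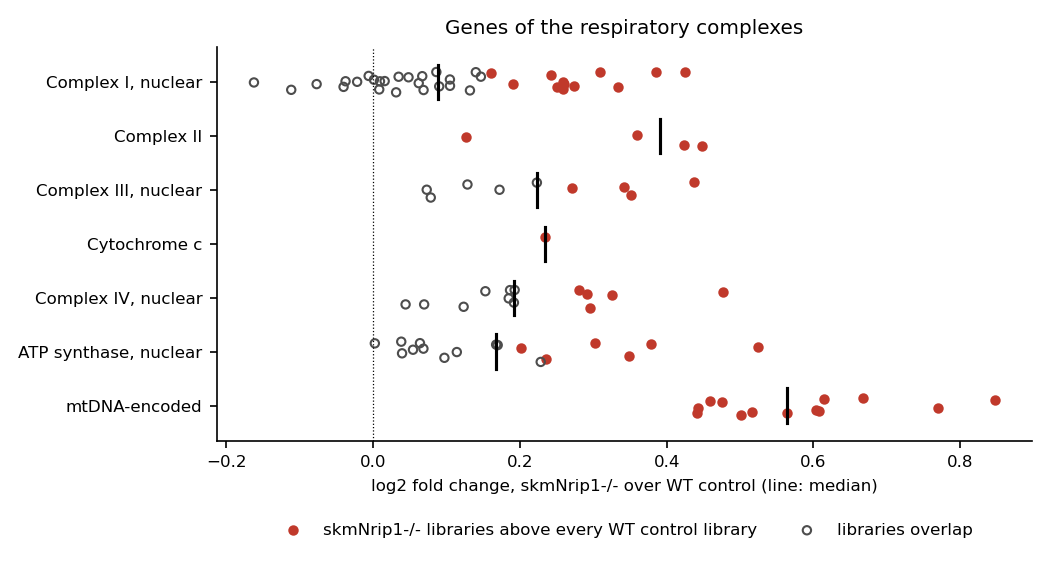
Log2 fold change (horizontal axis) of every tested gene of each respiratory complex, filled red where both libraries labelled skmNrip1-/- exceeded every WT control library and open where the groups overlapped, with the median as a black line. Complex III spans 0.07 to 0.44, overlapping the range of complex I, and the mitochondrial genes lie at 0.44 and above.

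Upstream sequence was examined because several members are classical targets of the nuclear respiratory factors NRF-1 and GABP. A window of 250 bases before the RefSeq start (GRCm38.p6) was at hand for 6 of 10 members, and both strands were searched for the letters GCGCANGCG (NRF-1, in 5.16% of 32851 promoters), CCGGAAG (the ETS site bound by GABP, 6.91%), TGACGTCA (the cAMP response element, CRE, 1.55%), AAGGTCA (the estrogen-related receptor half-site, 4.08%) and GGGCGGG (Sp1, 23.4%). Matches were found in 4 windows and did not overlap one another. Cycs held both an NRF-1 match (-61 to -53 from the start, minus strand) and a CRE (-169 to -162). Uqcrfs1 held a CRE (-29 to -22), and Uqcrh (-10 to -4) and Uqcr11 (-66 to -60) an ETS match. The gene bounds given above are from GENCODE, which starts Uqcrfs1 further upstream than RefSeq, so this CRE lies inside them. Neither Uqcrc1 nor Uqcr10 held any match, so matches occurred in members that did and did not overlap between groups. The Cycs window (chr6:50566570-50566819, minus strand) is shown in full because it carries the pair of sites, followed by 30 bases around each other match (Uqcrfs1, chr13:30545327-30545356, Uqcrh, chr4:116075071-116075100, and Uqcr11, chr10:80406869-80406898, all minus strand). All read 5′ to 3′ along the gene, with the matched letters in capitals. A match is a string of letters and no evidence of binding.
Cycs: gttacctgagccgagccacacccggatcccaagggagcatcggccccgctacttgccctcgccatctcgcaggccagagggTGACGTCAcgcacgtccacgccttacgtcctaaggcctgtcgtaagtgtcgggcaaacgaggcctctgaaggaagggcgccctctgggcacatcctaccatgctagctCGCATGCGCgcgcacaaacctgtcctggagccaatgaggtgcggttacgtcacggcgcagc
Uqcrfs1: cggcgtcgcgcTGACGTCAcaaaccctgcg
Uqcrh: actacgaggagtatgccgcaCTTCCGGcca
Uqcr11: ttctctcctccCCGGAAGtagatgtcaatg

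Of the 13 listed regulators of respiratory genes, 11 had log2 fold changes above 0 and 5 lay above every control (15.8% of all genes). Nrf1, which encodes NRF-1, measured 5.09, 3.97 and 4.75 FPKM in WT control and 5.64 and 3.31 FPKM in the libraries labelled skmNrip1-/-. The latter lay on either side of the controls, and the log2 fold change of -0.08 (adjusted p = 0.931) was the lowest of the list. Listed factors for the other motifs follow, picked after their values were seen. Esrra, the estrogen-related receptor alpha, measured 81.3, 90.4 and 83.1 FPKM against 107 and 111 FPKM, without overlap (0.36, SE 0.10, adjusted p = 0.254). Of the other listed estrogen-related receptors, Esrrb had a log2 fold change of 0.63 (adjusted p = 0.475) and lay above every control. Esrrg had 0.26 (adjusted p = 0.700) and overlapped. Gabpa, the DNA-binding subunit of GABP, had a log2 fold change of 0.29 (adjusted p = 0.584) and Gabpb1 0.32 (adjusted p = 0.638), both overlapping. Creb1, which binds the CRE, had 0.07 (adjusted p = 0.937) and overlapped. Nrip1, described above, was the highest of the list and the only one called.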

How the data were processed

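The authors quantified reads of TA muscle RNA against mm10 with Salmon (version 1.10.2), used DESeq2 (version 1.44.0), and deposited FPKM values per gene, whose medians of ratios are equal in all libraries. The number of reads per library is unknown from these values. The deposited table also holds the authors' log2 fold changes and p-values between genotypes, which were not used. FPKM are not counts, so limma 3.58.1 (R 4.3.3; linear model on 2 groups, empirical Bayes with trend, two-sided) was run on log2(FPKM + 0.1) for the 12148 genes with mean FPKM of 0.5 or more, with Benjamini-Hochberg adjustment. Fold changes are on that log2 scale. Calls needed both an adjusted p up to 0.05 and a 1.2-fold difference or more. The script was tested on simulated data. All members, mt-Cytb, the assembly and processing genes, and the extremes of the other lists were named by rule. The members and lists were chosen with earlier results of these data known. Transcript length, GC and shared 31-base words came from GENCODE M21, where 16996 of 17015 gene IDs matched, and promoters from RefSeq. Whether libraries kept strand is not given in the sources used here, so reads from genes overlapping Uqcrc2, Uqcrb and Uqcrh cannot be told apart. P-values rest on 5 mice and set the group difference against the spread between these samples, moderated over all genes tested. Alternatives changed the pseudocount, filter, scaling, test settings and libraries, or removed a trend with transcript length or GC content.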

Additional observations from a re-analysis of the deposited data

How the results depend on the processing

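In no setting was a member called. The member median stayed between 0.17 and 0.30 under every alternative tried except TPM. Rescaled to TPM, the median was -0.071 and log2 fold changes turned for Uqcrb (-0.076), Uqcrq (-0.13), Uqcrh (-0.23), Uqcr10 (-0.17), Uqcr11 (-0.22), Cyc1 (-0.028), Cycs (-0.065), Smim4 (-0.18), Bcs1l (-0.10), Lyrm7 (-0.19), Ttc19 (-0.21), Hccs (-0.0093), Pmpca (-0.25), Cox7a2l (-0.062), Gabpa (-0.0013) and Creb1 (-0.21), and 63 genes were called lower. Members above every WT control library numbered 0 in TPM (2.80% of all genes), 10 over nuclear genes (18.9%) and 10 with the length trend removed (17.1%). With the GC trend removed they numbered 6 (15.1%). When 1 library was left out they numbered 5 to 9 (19.9 to 27.3%), with 9 without the first WT control library. Genes called higher numbered 22 without the variance trend, 18 with the replicate number as a block, 14 at an adjusted p of 0.01 and 6 to 55 when 1 library was left out, and genes called lower 3, 4, 3 and 3 to 16. Leaving out 1 library gave log2 fold changes of -0.0098 to 0.20 for Uqcrh, -0.056 to 0.18 for Uqcr11, -0.10 to 0.18 for Pmpca, -0.15 to 0.46 for Smim4, -0.23 to 0.45 for Lyrm7, -0.13 to 0.22 for Creb1 and -0.46 to 0.30 for Nrf1. The 2 replicate numbers shared by the groups belong to different mice. Deviations from the group mean correlated at 0.06 and 0.10 between libraries of the same number. With 2 libraries in a group those deviations mirror each other, so the correlations cannot show whether the numbers pair the samples. With the replicate block the member median was 0.21. Where the groups keep 1 library, that library is assumed to vary like the others. With 2 libraries in a group and no read numbers, precision is set by the spread between mice, and intervals of the small subunits span more than 0.6 log2 units.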

Other observations

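Of 7 partners of cytochrome c in apoptosis tested, 4 had log2 fold changes above 0 (median 0.08). By limma 0 were called, 0 were higher at an unadjusted p of 0.05 (6.57% of all genes) and 2 were lower (5.33% of all genes). Bax, which opens the outer mitochondrial membrane to release cytochrome c, measured 19.0, 14.6 and 16.1 FPKM in the WT control libraries and 13.0 and 12.2 FPKM in the libraries labelled skmNrip1-/-, without overlap (log2 fold change -0.39, SE 0.14, adjusted p = 0.349 by limma). Bak1, which has the same function, measured 7.31, 7.76 and 7.57 against 5.25 and 6.71 FPKM, also without overlap (-0.34, adjusted p = 0.398). Apaf1, the scaffold that binds cytochrome c in the apoptosome, was low throughout, at 0.392, 0.448 and 0.458 against 0.504 and 0.777 FPKM, above every control (0.45, adjusted p = 0.627).

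On the other side of complex III, 9 genes of enzymes that reduce ubiquinone were tested, those of complex II among them, with a median log2 fold change of 0.16. By limma, 3 were higher at an unadjusted p of 0.05 (6.57% of all genes): Etfdh and the complex II genes Sdhb and Sdhd. Etfdh, which feeds electrons from fatty acid oxidation into the ubiquinone pool, had the largest change, at 64.8, 94.3 and 75.8 FPKM in WT control and 142 and 132 FPKM in the libraries labelled skmNrip1-/- (0.83, SE 0.17, adjusted p = 0.136). Prodh, which does so from proline, had the lowest, at 4.10, 3.35 and 3.66 against 3.28 and 2.48 FPKM (-0.36, adjusted p = 0.479). Testis cytochrome c, Cyct, was not analysed here.

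After Cox7a2l, the genes whose library profiles lay nearest to the mean profile of the members were Mmadhc, Chchd4, Gstk1 and Zfyve27, at root mean square distances of 0.0203 to 0.0231 log2 units. Nearest to Cycs were Gtf2f2 (0.0155), Chchd3 (0.0175) and Ing1 (0.0187).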
